A study of Sus scrofa and Bos taurus with 31 samples.

Results

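Open chromatin of pig lung was set against that of pig spleen, a pair of organs that both hold many blood vessels and immune cells. The assay was ATAC-seq, which marks accessible DNA by letting a transposase insert sequencing adapters into it, and each library was represented by a list of peaks, stretches where reads pile up over the local background. The peaks of the 4 lists, from lung and spleen of the castrated male Yorkshire littermates P348 and P350, both 6 months old, were merged where they shared at least 1 bp, which gave 281884 regions. A region was called lung-only when both lung lists and neither spleen list had a peak in it, spleen-only in the reverse case, and shared when all 4 lists had a peak. There were 45629 lung-only regions (16.2% of all), 10515 spleen-only regions (3.73%) and 48586 shared regions (17.2%). The 4 libraries are part of a series of 31 from 8 tissues of cattle and pigs, and no group was treated. Nuclei had been prepared from fresh tissue and stored frozen, so a library holds every cell type of its piece of organ, and more cells of a type cannot be told apart from wider opening in each cell.

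The lung is built of thin alveolar type I cells for gas exchange, surfactant-making type II cells, ciliated and secretory airway cells, and a dense capillary bed in a matrix of fibroblasts and smooth muscle. The spleen filters blood through its red pulp, rich in macrophages, and holds B and T cells in its white pulp. Chromatin around the start site of a gene is open in most tissues, whereas distal elements, many of them enhancers, open in the cell types that use them and carry the short motifs read by the transcription factors of those cells.

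The 5 sequences below, chosen as examples, show what the sets hold. They were read from the Sscrofa11.1 assembly at the central 300 bases of the region, forward strand, 5′ to 3′. Capitals mark matches to the motifs that are counted further below. In the USPL1 and LUZP4 sequences only the named pair of motifs was marked, so lower case there may hold matches to others. The first lies beyond the 3′ end of CD79B, which encodes a chain of the B cell receptor, and the second in an intron of ZCCHC7 next to PAX5. The others were picked on assembled chromosomes by the fold in the weaker pig. The USPL1 and LUZP4 regions had the highest such fold with a given pair of motifs, chosen after the motif values had been seen. The last had the highest such fold among lung-only regions.
CD79B downstream, spleen-only, chr12:15058629-15058928, PU.1, EBF and ETS matches: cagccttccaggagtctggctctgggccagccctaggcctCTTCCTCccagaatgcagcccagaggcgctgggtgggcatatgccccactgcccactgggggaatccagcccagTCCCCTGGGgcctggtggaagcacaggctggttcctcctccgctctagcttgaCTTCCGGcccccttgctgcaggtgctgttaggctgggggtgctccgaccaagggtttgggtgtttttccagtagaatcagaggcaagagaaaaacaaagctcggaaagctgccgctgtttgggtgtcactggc
ZCCHC7 intron, spleen-only, chr1:238035867-238036166, PU.1 match: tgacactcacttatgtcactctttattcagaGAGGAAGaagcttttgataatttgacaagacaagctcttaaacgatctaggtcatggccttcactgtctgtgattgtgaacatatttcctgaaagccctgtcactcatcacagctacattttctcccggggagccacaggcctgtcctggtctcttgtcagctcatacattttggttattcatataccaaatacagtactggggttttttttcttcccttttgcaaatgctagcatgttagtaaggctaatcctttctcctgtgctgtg
USPL1 exon near ALOX5AP, spleen-only, chr11:7359173-7359472, RUNX and IRF matches: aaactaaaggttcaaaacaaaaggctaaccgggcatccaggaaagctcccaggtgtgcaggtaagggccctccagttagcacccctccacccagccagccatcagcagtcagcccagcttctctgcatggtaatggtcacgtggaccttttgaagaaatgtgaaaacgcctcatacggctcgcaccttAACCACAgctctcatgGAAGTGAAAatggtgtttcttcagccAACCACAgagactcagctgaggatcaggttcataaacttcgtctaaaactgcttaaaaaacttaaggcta
Between genes near LUZP4, lung-only, chrX:94676982-94677281, TEAD and AP-1 matches: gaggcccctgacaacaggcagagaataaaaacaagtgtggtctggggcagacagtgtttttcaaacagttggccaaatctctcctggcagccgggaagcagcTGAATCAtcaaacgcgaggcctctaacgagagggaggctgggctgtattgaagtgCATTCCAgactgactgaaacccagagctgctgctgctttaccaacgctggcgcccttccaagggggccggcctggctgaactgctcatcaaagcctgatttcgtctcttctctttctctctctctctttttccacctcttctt
Between genes, lung-only, chr7:106271974-106272273, AP-1, SOX and PU.1 matches: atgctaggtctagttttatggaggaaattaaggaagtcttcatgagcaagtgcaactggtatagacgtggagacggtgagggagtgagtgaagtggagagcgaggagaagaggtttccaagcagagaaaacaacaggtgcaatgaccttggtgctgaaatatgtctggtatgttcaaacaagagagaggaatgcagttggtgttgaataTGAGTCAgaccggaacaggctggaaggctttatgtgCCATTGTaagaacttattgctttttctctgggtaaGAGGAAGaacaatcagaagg

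The lung lists were longer than the spleen lists. Lung had 171981 peaks in P348 and 193317 in P350, and spleen had 105278 and 104299. Peaks covered 116.2 and 145.0 Mb in lung and 66.3 and 67.8 Mb in spleen, with median widths of 537 and 600 bp against 478 and 520 bp. The lists hold no read counts, so the depth of each library is unknown and its part in these lengths cannot be told apart from that of the tissue. The 2 libraries of a tissue shared many but not all regions. The largest class was that of regions in the lung of P350 alone (57099), and 40339 lay in the lung of P348 alone, against 15924 and 13304 in the spleen of P348 and of P350 alone. Regions in 1 lung and 1 spleen library numbered 3297 and 5963 for libraries of the same pig and 5015 and 2757 for libraries of different pigs.

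Because list length alone can move these counts, the same number of best peaks by q-value, that of the shortest list, was taken from each. There were then 17582 lung-only regions, 17168 spleen-only regions and 38687 shared regions, so that the surplus of lung-only regions was gone. With the 20000 best peaks of each list the counts were 3602, 3779 and 11062. Peaks with a listed q-value under 0.0001 gave 8516 lung-only, 8448 spleen-only and 19196 shared regions. Spleen-only regions had higher folds, the ratio of signal to local background averaged over the peak, with medians of 3.69 in P348 and 3.11 in P350, than lung-only regions with 2.75 and 2.73. Shared regions had medians of 3.52 and 3.35 in the lung libraries and 4.16 and 3.48 in the spleen libraries. In 16.99% of shared regions both lung folds lay above both spleen folds, and in 33.7% both spleen folds lay above both lung folds.

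**Figure D1:**
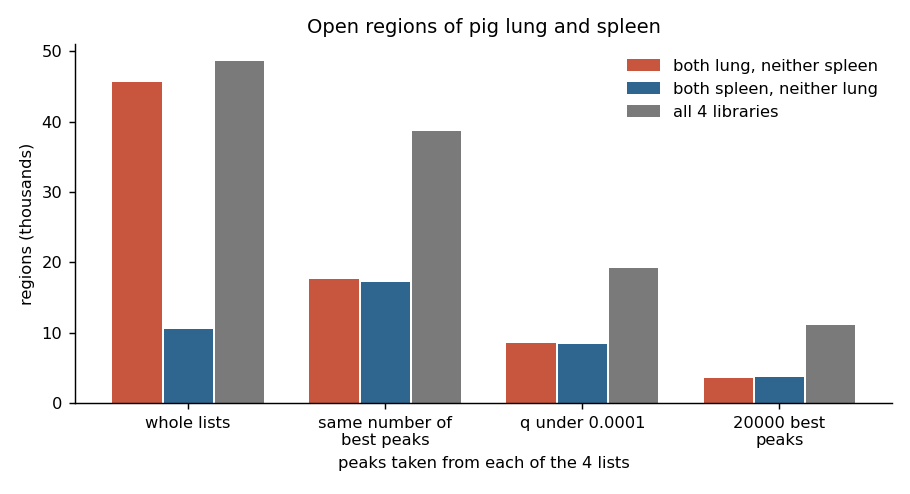
Number of regions (vertical axis, in units of 1000) open in both lung and neither spleen library, in both spleen and neither lung library, and in all 4, for 4 ways of taking peaks from the lists (1 bar each, no replicate error). Lung-only regions outnumber spleen-only regions with whole lists, 45629 against 10515, and the 2 bars are of nearly equal height once the lists have the same length.

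The sets were then placed relative to the transcription start sites (TSS) of protein-coding genes. Shared regions lay within 2 kb of a coding TSS in 29.3% of cases (95% Wilson interval 28.9 to 29.7), lung-only regions in 4.28% (4.10 to 4.47) and spleen-only regions in 5.26% (4.85 to 5.70). Within single pigs the lung-only share was 3.64% in P348 and 3.81% in P350, and the spleen-only share was 4.37% and 3.82%. With lists of equal length the lung-only and spleen-only shares were 5.30% and 5.29%, and the order turned with the 20000 best peaks, 23.6% against 14.3%, and with the stricter q-value, 13.2% against 8.71%. The share of shared regions near a TSS was the highest of the 3 sets under each of these settings. Intervals cover counting error only, and 2 libraries against 2 allow no exact permutation p under 0.33, so these shares were not tested.

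The sets also differed in distance to the nearest coding TSS, with regions within 2 kb of one included. Lung-only regions lay a median of 53671 bp from the nearest coding TSS and spleen-only regions 27352 bp, with shared regions at 15294.5 bp. The order was the same within P348 (58570 against 36387 bp), within P350 (57700 against 39753 bp), with lists of equal length (45584.5 against 29749 bp) and with the 20000 best peaks (22388 against 17279 bp). More than 100 kb separated 33.9% of lung-only and 17.8% of spleen-only regions from any coding TSS. Spleen-only regions fell more often inside coding genes, 55.6% against 47.3%, and lung-only regions more often between genes, 46.8% against 37.4%. With lists of equal length these shares were 54.2% against 48.9% inside genes and 43.9% against 38.6% between them.

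**Figure D2:**
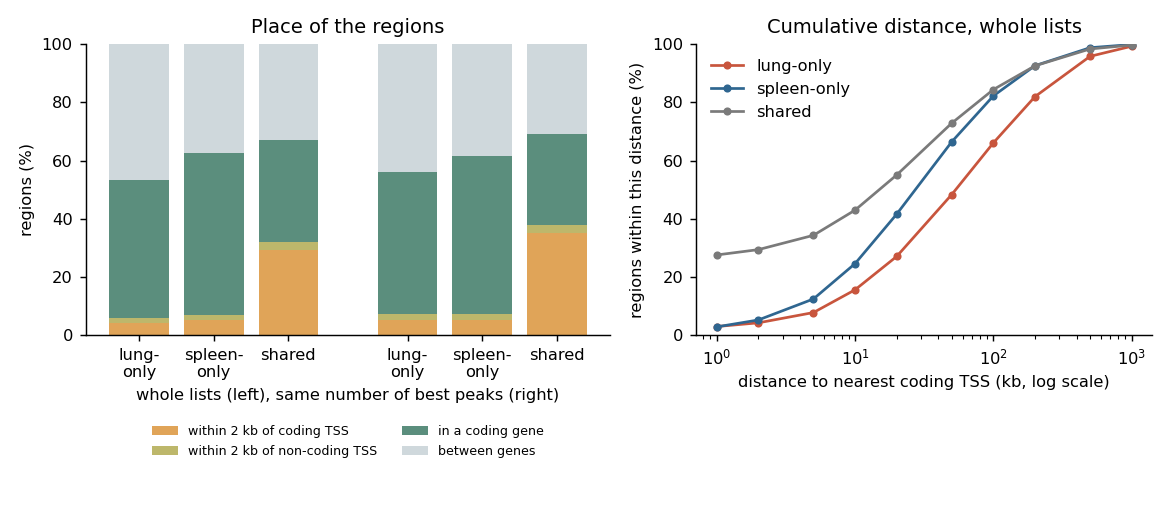
Left, share of regions (%) by place for the 3 sets, with whole lists and with lists of equal length. Right, cumulative share of regions (%) against distance to the nearest coding TSS (kb, log scale), where 48.3% of lung-only, 66.4% of spleen-only and 72.8% of shared regions on sequences with a coding TSS lie within 50 kb.

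Peaks of the 6 other tissues of the same pigs had no part in making the sets and show how widely each was open. In cerebellum 45.8% of lung-only regions had a peak and 12.8% of spleen-only regions, as means of the 2 pigs. The values were 40.8% and 12.01% in adipose, 32.3% and 9.95% in hypothalamus and 28.8% and 13.3% in skeletal muscle. The tissues with the smallest gap were liver, with 33.2% and 22.8%, and cerebral cortex, with 36.5% and 22.2%. The lung-only share was the higher in 6 of 6 tissues, by 20.7 ± 8.88 percentage points (SD, n = 6 tissues), with an exact two-sided sign-flip permutation p of 0.03125, the smallest that 6 tissues can give. The 6 values rest on the same 2 sets of regions and the same 2 pigs. The sets differed in median width, 782 bp for lung-only and 514 bp for spleen-only regions, and the part of width was not tested. Where a peak had to cover 50% of the region the difference was 11.8 points, and lists of equal length gave 13.0 points (exact permutation p = 0.03125 in both).

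Most spleen-only regions were open in none of the other tissues. Counting a tissue as open where both pigs had a peak, 65.4% of spleen-only regions, 32.4% of lung-only regions and 4.51% of shared regions were open in none of the 6. At the other end, 33.6% of shared regions were open in all 6, against 0.986% of lung-only and 0.0285% of spleen-only regions. The difference held near promoters too. Of regions within 2 kb of a coding TSS, 62.4% of the spleen-only and 23.9% of the lung-only ones were open in none of the 6, while 72.5% of the shared ones were open in all 6. These shares are from whole lists. A spleen-only region had to lack a peak in lung lists of 171981 and 193317 peaks, and a lung-only region in spleen lists of 105278 and 104299. The part of list length in these shares was not tested.

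**Figure D3:**
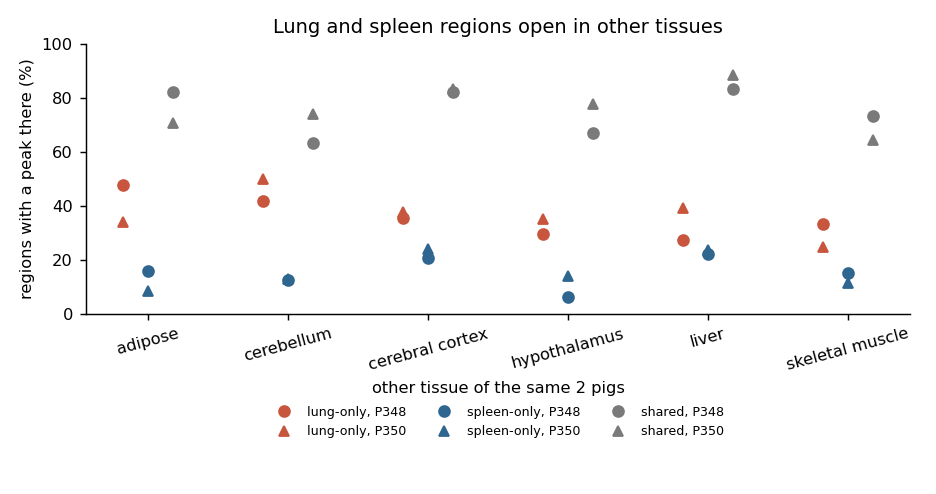
Share of lung-only, spleen-only and shared regions (%) with a peak in each of the 6 other tissues, 1 point per pig. Shared regions lie highest, and in every library the lung-only point lies above the spleen-only point, with the narrowest gap in the liver of P348 (27.3% against 21.96%).

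Sequence was the second feature that the sets were not chosen on. The central 300 bases of each region were searched on both strands for 14 short motifs, and a match is a description of the letters, not of a bound factor. Median widths were 782 bp for lung-only, 514 bp for spleen-only and 1223 bp for shared regions, so this window covers unlike parts of them. The part of width in the motif shares was not tested. The motif TGTGGTT, read by the RUNX factors of blood cells, was found in 13.5% of spleen-only regions, 5.93% of lung-only regions, 5.67% of shared regions and 6.65% of all 281884 regions. GAANTGAAA, read by the interferon regulatory factors (IRF) of lymphoid and myeloid cells, was in 6.001% of spleen-only, 1.79% of lung-only, 2.11% of shared and 2.32% of all regions. Both motifs were thus more frequent in spleen-only regions than in either other set. GAGGAAG, the motif of PU.1 in myeloid and B cells, was in 16.8%, 13.4%, 15.1% and 13.6% of regions in the same order, and AGATAA, read by GATA factors, in 15.5%, 11.8%, 8.82% and 11.98%. Within P348 the PU.1 shares were 15.7% of spleen-only, 12.7% of lung-only and 15.05% of shared regions. Within P350 they were 14.02%, 13.3% and 14.6%, so the spleen-only share lay below the shared one.

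Other motifs were more frequent in lung-only regions. CATTCCA, read by TEAD factors, was in 6.12% of lung-only, 3.41% of spleen-only, 3.598% of shared and 4.91% of all regions. TGANTCA, the site of AP-1 dimers, was in 11.8%, 10.4%, 8.21% and 10.3%. TGTTTAC, read by forkhead factors, was in 4.59%, 3.99%, 2.92% and 3.68%. TEAD and forkhead shares were higher in lung-only than in spleen-only regions within each pig. For AP-1 this held within P348, with 12.01% of lung-only and 10.38% of spleen-only regions. Within P350 the AP-1 shares were nearly equal, 10.25% and 10.26%. TCCCNNGGG, a core of the site of EBF1, was lower in spleen-only regions (5.11%) than in lung-only (8.69%), shared (10.1%) and all regions (8.18%), although EBF1 is a B cell factor. This motif is rich in G and C, and the median GC content of the window was 45.7% in spleen-only, 52.0% in lung-only and 56.0% in shared regions; its part in the motif shares was not tested. CCGGAAG, read by ETS factors, was in 5.62% of shared, 2.16% of lung-only and 1.76% of spleen-only regions. Among regions over 2 kb from a coding TSS the ETS shares were 3.07%, 2.09% and 1.75%. CTNGTGGC, part of the CTCF site, was in 5.98% of lung-only, 5.95% of spleen-only and 7.05% of shared regions, an order of the first 2 that turned with lists of equal length. CAGCTG (bHLH) was in 23.5% of lung-only, 21.9% of spleen-only, 21.7% of shared and 22.3% of all regions. CACTNNAG (NKX2) was in 18.2%, 17.3%, 15.4% and 17.1% in the same order. GGGANTTCC (NF-kB) was in 2.59%, 3.44%, 2.53% and 2.95%, and ACAATGG (SOX) in 4.15%, 3.79%, 3.01% and 4.12%. Within P348 the lung-only share was above the spleen-only share for NKX2 (18.06% against 17.02%) and SOX (4.44% against 4.04%). Within P350 it was below for NKX2 (17.2% against 17.5%) and SOX (4.215% against 4.405%). Matches to different motifs may overlap.

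The same motifs were counted over all peaks of each library, which no set had selected. RUNX matches were in 6.06% and 5.97% of lung peaks and in 7.85% and 7.30% of spleen peaks. IRF matches were in 2.09% and 1.79% of lung peaks and in 3.42% and 2.95% of spleen peaks. TEAD matches were in 5.21% and 4.82% of lung peaks and in 3.81% and 3.998% of spleen peaks. For RUNX, IRF, PU.1, TEAD, AP-1, forkhead, bHLH, NKX2 and CTCF the lung and spleen libraries did not overlap. With lists of equal length they also did not overlap and lay in the same order. For EBF and GATA the lung and spleen libraries overlapped with both kinds of list. For ETS, SOX and NF-kB the grouping changed with list length. ETS had means of 3.20% in lung and 4.01% in spleen with whole lists, with spleen higher. With lists of equal length the ETS means were 4.05% and 4.02%, with lung higher. SOX was higher in lung with whole lists and overlapped with equal ones. NF-kB overlapped with whole lists and was higher in spleen with equal ones.

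**Figure D4:**
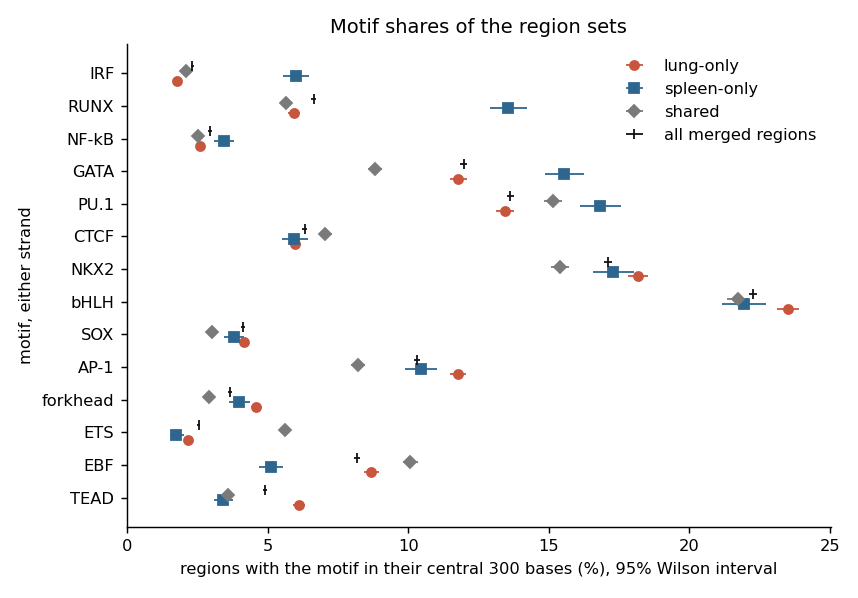
Share of regions (%) with each of 14 motifs in the central 300 bases, with 95% Wilson intervals, for the 3 sets and for all merged regions. Spleen-only squares stand far to the right of lung-only circles for RUNX (13.5% against 5.93%) and IRF (6.001% against 1.79%), and lung-only circles stand to the right for TEAD (6.12% against 3.41%).

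Some single regions on assembled chromosomes led each set by the fold of the weaker pig. Lung-only and spleen-only regions were taken with a different nearest gene each. The lung-only region with the highest value, chr7:106271923-106272325, had folds of 12.1 in both pigs, lay 560203 bp from the nearest coding TSS and had no peak in any of the 12 other pig libraries. The next, chrX:86785197-86785553, overlapped the first exon and TSS of MUM1L1 and had folds of 14.7 and 11.6. The third lay 48398 bp from MPPED2 at chr2:29991557-29991944, with folds of 11.3 in both. These last 2 had a peak in 11 of the 12 other pig libraries, so among the 16 pig libraries they were missing mostly from spleen. The leading spleen-only regions had peaks in 2 or 3 other libraries, mostly of liver. One lay 10739 bp from CD48, a surface protein of leukocytes, at chr4:89817833-89818184, with folds of 16.1 and 11.7. Another lay 54310 bp from SCAF11 at chr5:76930963-76931372 (10.7 and 8.48), and the last in an intron of STAT4, a transducer of cytokine signals in T and NK cells, at chr15:95682266-95682650 (9.16 and 8.34). The shared regions with the highest minimum fold, chr1:104618395-104618616 between genes and chr8:134007514-134007872 in an intron of CDS1, had folds of 21.9 and 18.5 or more in all 4 libraries and peaks in all 12 others.

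The marker genes given with the comparison were looked at by their regions first. The start of SFTPC, the gene of surfactant protein C, had a lung-only region over its first exon, where the fold was 2.73 in the P348 lung and 2.09 in the P350 lung, without a spleen peak. CD79B had a shared region over its start, with folds of 2.178 and 2.29 in lung and 2.88 and 2.59 in spleen. It had 2 spleen-only regions beyond its 3′ end, chr12:15057392-15057724 and chr12:15058624-15058934, with folds of 3.42 and 2.89 in the first and 3.91 and 3.05 in the second. AGER, the receptor for advanced glycation end products of alveolar type I cells, did not separate the tissues: the 3 shared regions within 10 kb of it lay at or near the starts of its neighbours RNF5 and PBX2, and none of the 3 sets had a region at its own start.

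ETS1 and FLI1, neighbouring genes of ETS factors of blood and vessel cells, were open in both organs. ETS1 held 14 shared regions, 4 spleen-only and 1 lung-only region within its window, and FLI1 held 8, 5 and 3. Both starts were covered by shared regions. At the start of ETS1 the fold was 7.28 and 7.01 in lung and 8.84 and 6.59 in spleen, so these groups overlapped. The spleen-only regions were in introns for ETS1, at 5210, 9346, 18156 and 26317 bp from the nearest coding TSS. After list lengths were made equal ETS1 had 6 spleen-only regions against 1 lung-only region and FLI1 had 8 against 0.

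Peak length per gene was compared next. For each of 17351 genes the bases of peaks in the gene body and 10 kb on either side were given per Mb of peaks in the library, and limma was fitted on the log2 of this value plus 10. At a limma Benjamini-Hochberg adjusted p under 0.05, 512 of these genes (2.95%) had more peak bases per Mb in lung and 1889 (10.9%) more in spleen. The median log2 difference of lung minus spleen over all genes was -0.31. These values are shares of each list. The lists covered 116.2 and 145.0 Mb in lung and 66.3 and 67.8 Mb in spleen, so a larger share in spleen need not mean more open bases. With each library centred on its median, an alternative chosen after seeing the data, the calls were 490 in lung and 135 in spleen. With lists of equal length limma called 0 genes in either direction, with 3366 at an unadjusted p under 0.05, and 0 with either lung library left out (4558 without P348 and 3411 without P350 at an unadjusted p under 0.05). Without a spleen library it called 801 and 1528 (P348 left out) or 1011 and 2198 (P350 left out). In the paired fit, with the replicate block of the pig, it called 124 and 296. Calls and directions below are those of the fit without centring, so the shift of -0.31 was not taken off them. Values in every library are given for many of the genes. A gene that did not pass is not shown to be alike in both organs. Both lung libraries lay above both spleen libraries for 15.5% of genes, and both spleen libraries above both lung libraries for 51.0%.

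The largest difference toward spleen was found next to a master gene of B cells. ZCCHC7, a zinc-knuckle protein of RNA processing, lies beside PAX5, the factor that fixes B cell identity. Its window, around chr1:237820675-238068505, had 17.9 and 9.56 peak bases per Mb in the lungs of P348 and P350 and 210.1 and 187.4 in the spleens. The log2 difference was -3.16 ± 0.24 (SE; limma adjusted p = 0.0210), and the 2 groups were far apart. Within its introns 16 spleen-only regions and no lung-only region stood in a row over 163.8 kb, from 237894120 to 238057920, with folds of 2.74 to 9.05 in P348 and 2.50 to 5.37 in P350. The start of ZCCHC7 itself was shared, with folds of 6.22, 6.66, 6.34 and 5.65. In lists of equal length the window held 18 spleen-only and 0 lung-only regions.

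PAX5 itself depended on list length. Its window had 190.7 and 232.6 peak bases per Mb in lung and 200.7 and 167.4 in spleen with whole lists, which overlap, with a log2 difference of 0.19 ± 0.20 (SE; limma adjusted p = 0.4999). In lists of equal length it had 114.7 and 153.6 in lung and 202.4 and 167.4 in spleen, with both spleens above both lungs. It held 9 lung-only regions, 3 spleen-only and 7 shared, and 0 lung-only and 6 spleen-only regions once the lists were of equal length. Its 3 spleen-only regions had folds of 3.85, 3.82 and 5.26 in P348, and those of its 9 lung-only regions ran from 2.17 to 3.18 in that pig. In P350 the spleen-only folds were 2.69, 3.19 and 3.15 and the lung-only folds ran from 2.04 to 2.79, so the kinds overlapped there.

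Other leading spleen genes included genes of immune cells. CASK, a scaffold kinase of cell junctions on the X chromosome, had 11.8 and 7.49 peak bases per Mb in lung and 146.4 and 127.6 in spleen (log2 difference -2.91 ± 0.22, SE). Its window held 11 spleen-only regions and no lung-only region. GPR34, a lysophospholipid receptor of myeloid cells, and GPR82 lie inside it, were at 0 in both lungs and share its peaks, so the 3 are 1 locus. TLR8, an endosomal sensor of single-stranded RNA, had 15.5 and 13.3 in lung and 152.8 and 94.3 in spleen, with 6 spleen-only and 0 lung-only regions. CBLB, a ubiquitin ligase that restrains T and B cell activation, had 56.4 and 33.9 against 269.4 and 229.2, with 10 spleen-only regions and 1 lung-only region. The other members of the first 10 were UTS2B, C5H12orf75 and the neighbours LOC102162202 and LOC102159655, whose windows overlap. The limma adjusted p of the 10 genes ran from 0.0210 to 0.0277. With lists of equal length the spleen libraries lay above the lung libraries in all 10, and in 5700 of all 17351 genes. The 10 were picked for this difference, and the shorter lists are parts of the same lists, so this is no separate test.

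The leading lung genes included structural and surface genes. PDPN, podoplanin of alveolar type I cells and lymphatic vessels, had 40.1 and 39.6 peak bases per Mb in lung and 0 in both spleens. All 6 of its set regions were lung-only, one of them over its start, and the strongest had folds of 3.55 and 4.06. COL8A1, a collagen chain of vessel walls, had 118.8 and 106.1 in lung and 9.38 and 22.3 in spleen, with 10 lung-only and 0 spleen-only regions (log2 difference 2.29 ± 0.28, SE). FGF13, an intracellular relative of the fibroblast growth factors, had 108.1 and 208.8 against 16.4 and 7.89, the largest log2 difference toward lung (2.89 ± 0.34, SE). HS3ST5, which sulfates heparan chains, had 67.4 and 52.8 against 0 and 6.43. HSD17B2, an enzyme that inactivates sex steroids, had 38.8 and 39.7 against 0 and 4.74. PCSK2, a prohormone convertase, had 91.5 and 142.7 in lung and 43.5 and 5.06 in spleen, so the spleens differed widely. MAP7D2, CBR1, C13H3orf20 and LOC100523909 completed the 10, with adjusted p from 0.0277 to 0.0446. With lists of equal length the lung libraries stayed above the spleen libraries for 9 of the 10, CBR1 being the exception, and for 3340 of all 17351 genes. These 10 were picked for their difference in the same lists as well, so this too is no separate test.

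**Figure D5:**
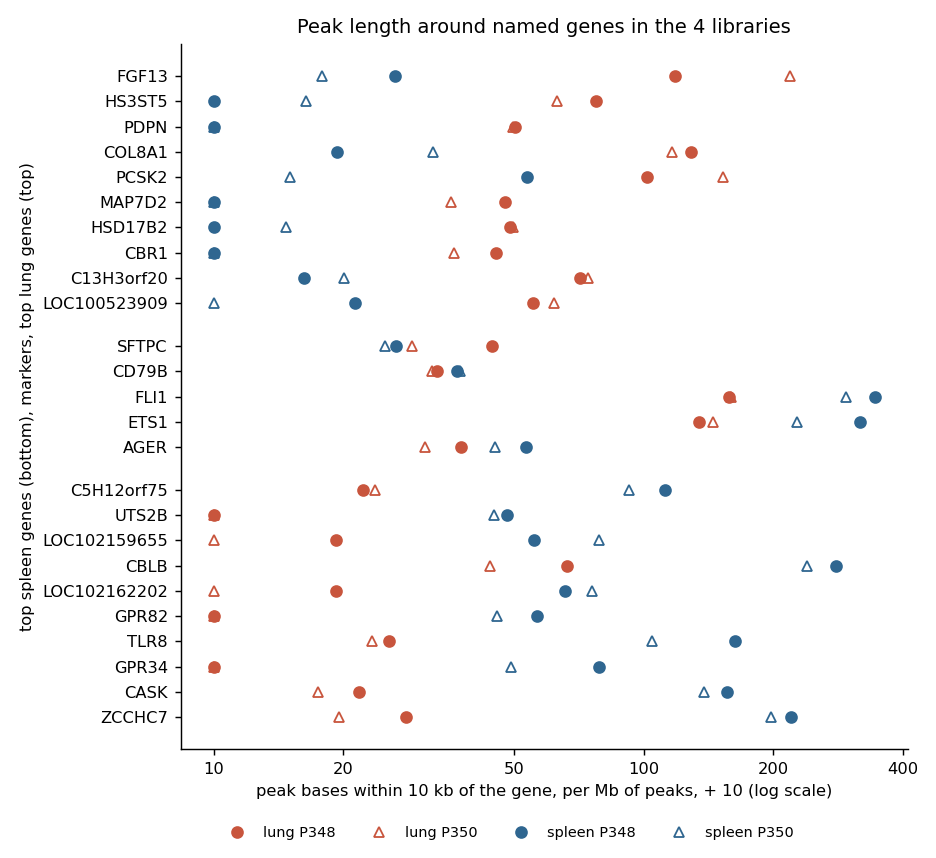
Peak bases within 10 kb of each gene per Mb of peaks, plus 10 (log scale), in the 4 libraries, for the 10 genes called with the largest difference toward spleen, the 5 marker genes and the 10 toward lung. Lung and spleen points do not overlap for the leading genes, with ZCCHC7 at 9.56 to 17.9 in lung and 187.4 to 210.1 in spleen before the 10 was added, while AGER, CD79B and SFTPC lie close together.

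Genes of lymphocytes were compared as lists, which were chosen with earlier results of these data known. Of 13 B cell genes tested 9 had more peak bases per Mb in spleen, beside 10.9% of all genes, and 0 in lung. The list median was -0.87 beside -0.31 for all genes. MS4A1, the CD20 antigen, had 12.2 and 13.3 in lung and 51.0 and 42.7 in spleen. BANK1, an adaptor of B cell receptor signalling, had 70.9 and 60.5 against 214.8 and 174.8, and CD79A had 9.21 and 14.2 against 38.9 and 39.6. CD79B did not pass, with 23.1 and 22.2 against 26.8 and 27.3, nor did PAX5, EBF1 or SPIB. In lists of equal length the 13 genes held 54 spleen-only and 8 lung-only regions, where all coding genes had 113.6 spleen-only for every 100 lung-only ones.

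T and NK cell genes and blood transcription factors gave the same kind of counts. Of 19 T and NK cell genes 7 had more peak bases per Mb in spleen, where 10.9% of all genes did, and 0 in lung, with a median of -0.86. TBX21, the T-bet factor of NK and type 1 helper cells, had 6.88 and 10.3 in lung and 72.2 and 55.7 in spleen (log2 difference -1.99 ± 0.23, SE; limma adjusted p = 0.0277). CD8A, a co-receptor of cytotoxic T cells, had 44.3 and 47.7 against 110.5 and 96.5. BCL11B, a T cell factor, lay the other way with whole lists, with 142.7 and 180.8 in lung and 104.5 and 139.0 in spleen, and did not pass. Of 13 blood transcription factors 7 passed toward spleen, against the same 10.9% of all genes, and 0 toward lung, with a median of -0.80. IKZF3, the lymphoid factor Aiolos, had 22.9 and 19.1 in lung and 113.8 and 108.9 in spleen. ELF1 had 98.5 and 73.0 against 218.7 and 236.8, and RUNX3, a T and NK cell factor, had 32.0 and 63.0 against 133.8 and 98.5. ETS1 (124.4 and 134.9 against 308.3 and 216.7) and FLI1 (147.6 and 149.4 against 334.6 and 284.5) passed as well, while RUNX1, IRF4, BCL6, MYB, GFI1 and STAT5A did not. With lists of equal length the transcription factors held 58 spleen-only and 5 lung-only regions and the T and NK cell genes 41 and 6. With that setting the list medians were -0.74 for B cell genes, -0.71 for T and NK cell genes and -0.70 for the factors, beside -0.08 for all genes, and limma called none of their members in either direction. With each library centred on its median 1 gene of each of these 3 lists was called toward spleen and 0 toward lung. In the paired fit, with the replicate block, 2 B cell genes, 1 T and NK cell gene and 2 of the factors were called toward spleen.

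Myeloid, erythroid and housekeeping genes were given the same treatment. Of 13 macrophage and myeloid genes 2 passed toward spleen, beside 10.9% of all genes, and 0 with median centring or with the replicate block. They were CSF1R, the receptor of the macrophage growth factor (20.9 and 40.6 against 100.2 and 70.4), and CSF3R (15.9 and 18.9 against 35.6 and 41.3). SPI1, the gene of PU.1, had 40.8 and 49.5 in lung and 60.2 and 29.9 in spleen with whole lists, which overlap, and 66.3 and 82.2 against 60.7 and 29.9 in lists of equal length, with the lungs above. MRC1, the mannose receptor of alveolar and tissue macrophages, had 49.0 and 49.6 in lung and 34.6 and 13.3 in spleen and did not pass. Of 5 erythroid genes tested KLF1 passed toward spleen, beside 10.9% of all genes. The 8 housekeeping genes had a median of -0.56, with HPRT1 past the threshold toward spleen, beside the same 10.9%. Their spleen libraries lay above the lung libraries for 7 of 8, beside 51.0% of all genes. For lists of equal length the housekeeping median was -0.14.

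Of 17 alveolar genes 3 passed toward lung, beside 2.95% of all genes, and 0 toward spleen, with a median of -0.04. None of the 3 was called by limma in the paired fit with the replicate block, and all lists together then had 1 call toward lung, in lung mesenchyme. KLF1, HPRT1, ACTA2 and MADCAM1 were likewise not called in that fit. CLDN18, a claudin of alveolar junctions, had 53.0 and 34.1 in lung and 3.52 and 13.6 in spleen. SFTPA1, a surfactant collectin, had 36.6 and 47.9 against 14.4 and 4.99, and NKX2-1, the factor that specifies lung epithelium, had 37.6 and 37.2 against 14.9 and 18.5. The start of NKX2-1 was nonetheless a shared region, with folds of 2.40 and 2.76 in lung and 3.98 and 3.14 in spleen. SFTPB, with 37.6 and 33.7 against 19.96 and 5.71, and SFTPC, with 34.3 and 18.9 against 16.6 and 15.1, did not pass, and EPCAM, AQP5, NAPSA, ETV5, LPCAT1 and AGER had higher values in both spleens with whole lists. Of the 17 genes 5 had a lung-only region at their start and 2 a spleen-only region, where 8.72% and 2.62% of all coding genes had one.

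Of 11 lung mesenchyme genes TBX5 alone passed toward lung, beside 2.95% of all genes. It had 56.3 and 66.9 against 13.1 and 19.8, and it held 7 lung-only regions and 1 spleen-only region. TBX4, a lung mesenchyme factor like it, had 34.3 and 41.9 against 37.2 and 13.3, which overlap, and 3 lung-only and 0 spleen-only regions. None of 8 airway genes tested passed, and the 9 airway genes held 27 lung-only and 0 spleen-only regions, or 13 and 3 with lists of equal length. All coding genes held 30333 lung-only and 8791 spleen-only regions, or 12367 and 14043 with lists of equal length. FBN1, the fibrillin of elastic microfibrils, passed toward lung among the 11 smooth muscle and matrix genes tested (176.2 and 169.0 against 74.5 and 94.3, with 16 lung-only and 0 spleen-only regions). ACTA2, smooth muscle actin, passed toward spleen (25.99 and 23.7 against 58.9 and 55.3). Of all genes 2.95% passed toward lung and 10.9% toward spleen.

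Of 14 endothelial genes TIE1, an angiopoietin-related receptor, passed toward lung (45.2 and 37.1 against 17.7 and 19.9), beside 2.95% of all genes. SOX18 passed toward spleen (17.7 and 15.3 against 52.9 and 50.4), beside 10.9% of all genes. ERG, an ETS factor of endothelium, held 13 lung-only and 0 spleen-only regions, with 221.4 and 265.3 in lung and 190.4 and 162.4 in spleen, and did not pass. In the list of spleen stroma and patterning genes, of which 11 were tested, MADCAM1, an addressin of the marginal sinus, passed toward spleen (25.1 and 25.2 against 68.2 and 60.0). TLX1, the homeobox gene required to form a spleen, passed toward lung (30.6 and 34.8 against 13.6 and 13.4). This list held 25 lung-only regions and 1 spleen-only region, where all coding genes held 30333 and 8791. It had 7 and 3 with lists of equal length, where all coding genes had 12367 and 14043. The list had a median of 0.41, and its members that lay toward lung, such as TLX1 and CXCL12, are a patterning gene and a stromal chemokine. After median centring limma still called 1 gene toward lung in each of these lists and 0 toward spleen, so the calls of SOX18 and MADCAM1 were lost. With the replicate block SOX18 was the only call of both lists.

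The lists hold genes of other cell types that a piece of organ can carry. Of 12 mesothelial, pancreatic, cardiac, adipocyte and skeletal muscle genes tested TNNT2, a cardiac troponin, passed toward lung, beside 2.95% of all genes. It had 13.9 and 23.1 against 3.5 and 3.98, and the other 11 did not pass. The median of this list was -0.09. The part of heart muscle cells in the lung samples was not tested.

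Counted by window, 57.8% of the 17351 genes had at least 1 lung-only region within 10 kb and 30.0% at least 1 spleen-only region. Of 13 B cell genes 12 had a spleen-only region and 5 a lung-only region, and of 13 blood transcription factors 9 and 11. Of 17 alveolar genes 8 had a spleen-only region and 15 a lung-only region.

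Regions were also assigned to the nearest coding TSS. Of 18645 genes with a region, 10905 had a lung-only, 5633 a spleen-only and 4196 both kinds. The largest surplus of spleen-only regions was at BANK1, with 14 against 2 lung-only regions. ITGA4, the integrin chain of lymphocyte homing, had 12 against 1, PTGER4, a prostaglandin E2 receptor of immune cells, 15 against 5, and RIPOR2 and LOC100737060 11 against 2 and 10 against 1. The largest surplus of lung-only regions was at RBFOX1. These counts are from whole lists, with 45629 lung-only and 10515 spleen-only regions in all, and take no account of gene length. RBFOX1 spans 2271 kb, and a further 367 regions of none of the 3 sets lay nearest to it. The part of list length and gene length in these surpluses was not tested. RBFOX1, a splicing factor gene, had 64 against 1, KCNT2, a potassium channel on an unplaced scaffold, 57 against 0, CDH4, a cadherin, 52 against 0, COBL, an actin nucleator, 51 against 3, and VRK1, a nuclear kinase, 48 against 0.

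Along the chromosomes, lung-only regions were spread at 16.9 to 23.7 per Mb over the 18 autosomes and spleen-only regions at 3.598 to 6.44 per Mb, and the X chromosome, of which these males carry a single copy, had 5.52 and 1.94. Of 2418 windows of 1 Mb with a region, 2278 held more lung-only and 91 more spleen-only regions. The spleen-rich windows held immune genes. At chr4:92000001-93000000 there were 28 spleen-only and 12 lung-only regions around the CD1 lipid antigen presenters, the Fc receptor-like genes FCRL4 and FCRL5 and CD5L. At chr4:117000001-118000000 there were 26 and 10, around S1PR1, the receptor by which lymphocytes leave tissue, and VCAM1, a ligand of the ITGA4 integrin. At chr15:86000001-87000000 there were 24 and 7, around ITGA4 itself. The lung-rich windows lay over CDH4 on chromosome 17 (60 against 1), over ADAMTS16 and ICE1 on chromosome 16 (52 against 1) and over NFATC1, ATP9B and SALL3 on chromosome 1 (53 against 3).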

How the data were processed

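ATAC-seq peak lists of lung and spleen of pigs P348 and P350 were compared, with the lists of 6 other tissues of both pigs used for overlap. The submitters' processing notes name Trim Galore 0.4.5, BWA 0.7.17, SAMtools 1.10 and Picard 2.18.17, whose roles of trimming, alignment to Sscrofa11.1, filtering and removal of duplicates are described in the methods for ChIP-seq. The authors called broad peaks in each library with MACS2 at a q-value limit of 0.05. A shift of read ends is not given in the sources used here. The deposited score in column 5 is close to 10 times the −log10 q-value of column 9, the deposited fold in column 7 is a ratio to the background around the peak, and the deposited −log10 p-value stands in column 8. The last 3 are averages over the peak. In the lists 7.70% to 14.8% of peaks had a listed q-value over 0.05, and the lowest −log10 q-value of each list was 1.01; why these lie over the stated limit was not tested. No read counts are held, so depth is unknown, and a deeper library can have a longer list. The 4 lists had 4 different peak numbers.

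Genes came from NCBI annotation release 106 of Sscrofa11.1 (20674 protein-coding genes, 47445 coding TSS positions); the study used another annotation. Regions were classed as within 2 kb of a coding TSS, then of a non-coding TSS, then in a coding gene, then intergenic. Per gene, peak bases in the body and 10 kb on either side per Mb of peaks were tested with limma 3.58.1 (R 4.3.3, trend) on log2(value + 10), for genes with a mean of at least 10, with Benjamini-Hochberg adjustment at 0.05; the pseudocount makes differences of low genes too small. The test was checked on simulated data. Shares over tissues were tested with SciPy 1.17.1. Pigs named in the labels pair the samples; the pig difference in lung and that in spleen correlated at -0.0188 over 17351 genes. There was 1 library per pig and tissue. The limma p-values describe the spread between these 2 littermates, with variances pooled in part over the 17351 genes. The exact permutation p over tissues describes the spread between tissues, not that between the pigs.

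Named genes were the markers SFTPC, AGER, CD79B and ETS1, FLI1, list members past the threshold or defining, the 10 genes with the largest difference past the threshold in each direction, and the 5 with the largest surplus of nearest regions in each. Named regions lay on assembled chromosomes and had the highest fold in the weaker pig. Lung-only and spleen-only ones each had a different nearest gene. PAX5 and the motif examples were chosen after values were seen. Members and lists were chosen with earlier results of these data known. CR2, ZAP70, MSLN and MYH6 had no coding gene of that name here. Alternatives were lists of equal length or of 20000 best peaks, a q-value under 0.0001, other merging, coverage, windows and pseudocounts, no filter, the replicate block and leaving out each library; median centring was added after the data were seen. Some genes and 1 sequence are not reported here.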

Additional observations from a re-analysis of the deposited data

How the results depend on the processing

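Set sizes depended on list length. Lists of equal length gave 17582 lung-only and 17168 spleen-only regions, with TSS shares of 5.30% for lung-only and 35.0% for shared regions. The 20000 best peaks gave 3602, 3779 and 11062 regions (lung-only, spleen-only, shared) with TSS shares of 23.6%, 14.3% and 71.4%. A q-value under 0.0001 gave 8516 lung-only and 19196 shared regions with shares of 13.2%, 8.71% and 53.4%. With 50% of a region covered there were 21079 shared regions, and the shares were 6.67%, 6.67% and 46.9%, and with a TSS limit of 500 bp they were 2.47%, 2.17% and 26.6%. Leaving out each library in turn gave 57461 to 104482 lung-only, 14954 to 27153 spleen-only and 52158 to 61402 shared regions, with TSS shares of 3.44% to 4.89%, 3.89% to 5.41% and 24.2% to 27.5%. Within pigs (the replicate block) means were 110588 lung-only and 33389.5 spleen-only regions, with TSS shares of 3.73%, 4.09% and 21.99%. The difference over the other tissues was 11.8 to 21.0 points under its 6 alternatives, each with an exact permutation p of 0.03125.

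Motif differences (lung-only minus spleen-only, percentage points) kept their direction for RUNX, IRF and TEAD. They were -5.72, -3.11 and 3.75 with lists of equal length, -5.31, -3.66 and 3.79 with the 20000 best peaks and -6.99, -3.65 and 4.47 with the stricter q-value. The central 200 bases gave -6.16 for RUNX and -3.28 for IRF. CTCF turned to -0.49 with lists of equal length, -3.88 with the 20000 best peaks, -2.15 with the stricter q-value and -0.14 with 200 bases, and with the 20000 best peaks NKX2 turned to -0.35 and SOX to -0.051.

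Genes called by limma toward lung and toward spleen numbered 0 and 0 with lists of equal length, also with centring added, 279 and 1000 with a 2 kb window and 1259 and 4794 with a 50 kb window. A pseudocount of 1 gave 315 toward lung, no filter 971 toward spleen, the 20000 best peaks 600, the stricter q-value 415 and centring 135 toward spleen. The paired fit with the replicate block gave 124 and 296, and ETS1 and FLI1 then had limma adjusted p of 0.0561 and 0.0502. Leaving out each library gave 0 to 1011 toward lung and 0 to 2198 toward spleen, with the lone sample of an arm assumed to vary like the other group. The log2 difference turned for SFTPC with the 2 kb window (-0.069), for CD79B with centring (0.14) and for AGER with lists of equal length (0.016), the 20000 best peaks (0.0041), the stricter q-value (0.001) and equal length with centring (0.091). The cause was not tested. Depth is unknown, so a missing peak does not show closed chromatin.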
